A study of Homo sapiens with 2 samples.

Results

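The genes described here restrain the kinase MTOR when a cell is stressed, or form the complexes through which that restraint acts. They are DDIT4 and its paralogue DDIT4L, the sestrins SESN1, SESN2 and SESN3, the tuberous sclerosis genes TSC1 and TSC2, MTOR itself, its scaffold RPTOR and its inhibitor DEPTOR. They were measured in SKOV3, a human ovarian adenocarcinoma line, after stable knockdown of the transcription factor RUNX2. The members were all non-control probes whose RefSeq accession belongs to 1 of these 10 genes, whatever their value. There were 11 such probes among the 41000 of the array, with 2 for SESN1 and 1 for each other gene.

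The RNA compared came from cl-sh3, a puromycin-selected clone carrying a RUNX2 shRNA from the pLKO.1-puro lentiviral vector, and from a mock-transduced clone that carried the same vector with a scramble sequence. Both clones were grown as adherent cultures in the same medium. Each RNA stands for 1 clone, so a difference between clones of SKOV3 that arose by chance during selection and an effect of the knockdown cannot be told apart here. The pair of RNAs was hybridized on 2 arrays with the dyes exchanged, cl-sh3 being labelled with Cy5 in hybridization 1 and with Cy3 in hybridization 2.

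The MTOR kinase, in the complex it forms with RPTOR, promotes protein synthesis and growth and holds back autophagy when nutrients and growth factors are present. The TSC1 and TSC2 proteins together switch off the small GTPase RHEB, which activates that complex. DDIT4, also known as REDD1, is induced by hypoxia, endoplasmic reticulum stress, glucocorticoids and DNA damage and acts through the TSC complex, whereas the sestrins act through the AMPK kinase and through the GATOR complexes that sense amino acids.

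Because both hybridizations used the same RNAs, they counted as 1 replicate, and no test between the clones was possible. The distance between the 2 ratios of a probe shows technical error only. Over the 36060 probes that were well above background in at least 1 RNA in both hybridizations, and that had a ratio in each, this distance had a median of 0.22 and a 95th percentile of 0.63 on the log2 scale. Median spot signals ranged from 451 to 902.5 over median local backgrounds of 43 to 166.5, and no spot was saturated. The targeted gene was measured by 3 probes. The probe of RUNX2 with the strongest signal gave log2 ratios of cl-sh3 over control of -2.04 and -1.30, while the other probes gave 0.17 and -0.13, and -0.29 and -0.17. All 10 markers of epithelial ovarian carcinoma were well above background in both RNAs, with a summed intensity of 237249 to 272579. The summed intensity was 3070 to 3680 for 4 leukocyte markers, 585 to 740 for 3 endothelial markers, 479 to 843 for the 2 fibroblast markers with a probe and 535 to 588 for 2 erythroid markers. All 4 leukocyte, 2 erythroid and 2 fibroblast markers were also well above background in both RNAs, as were 2 endothelial markers in the control and 3 in cl-sh3. The hepatocyte marker ALB was not well above background. The background flag thus did not set the carcinoma markers apart, and the sums cover different numbers of genes.

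All 11 member probes were well above background in both RNAs on both arrays, and none of their spots was excluded. Most spots of the arrays were so marked, 77.3% to 93.9% of them depending on array and dye. The DDIT4 and DDIT4L probes met the rule of a decrease of 2-fold or more in each hybridization, which made 2 of 11 member probes, against 0.394% of all 36060 probes. No member probe was at least 2-fold higher in both, a rule met by 0.122% of all probes. The members were chosen with earlier results of the same arrays known, so that these counts are not independent evidence of a direction. Without regard to size, 8 member probes were lower in cl-sh3 in both hybridizations, 2 were higher in both and 1 changed sign. Over all probes, 27.3% were lower in both and 29.8% were higher in both. The members' mean log2 ratios ranged from -1.41 to 0.38, with a median of -0.12 against 0.01 for all probes. The absolute mean ratio exceeded the distance between the hybridizations for 8 of 11 member probes and for 37.2% of all probes.

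**Figure D1:**
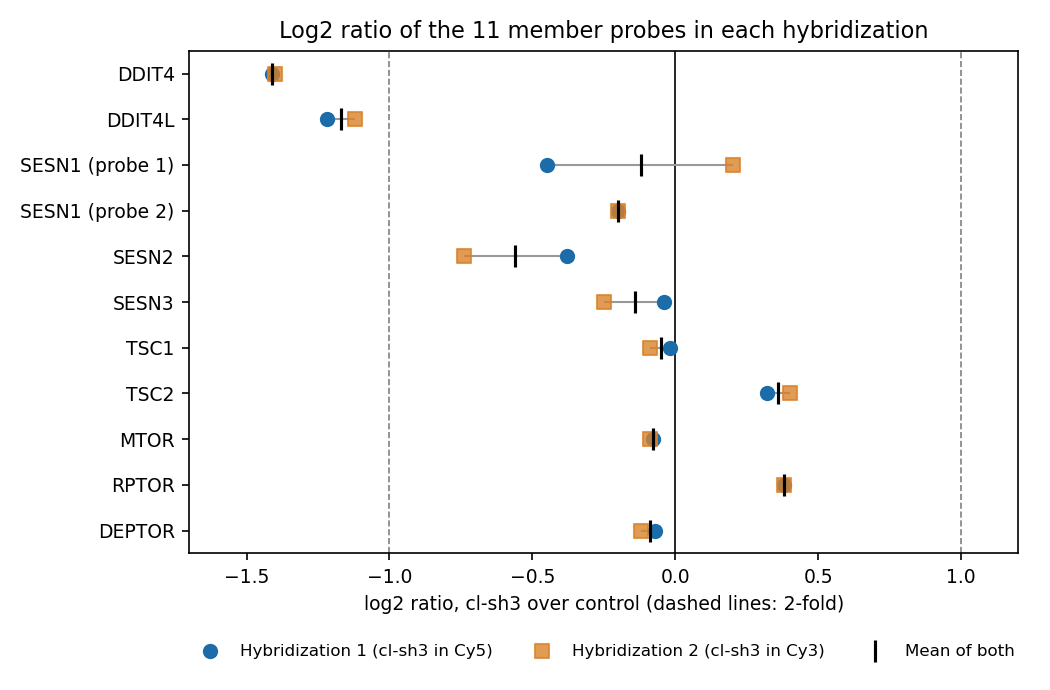
Log2 ratio of cl-sh3 over control (horizontal axis) for each member probe (rows), in hybridization 1 (circles), hybridization 2 (squares) and as their mean (bars). DDIT4 and DDIT4L lie beyond the 2-fold line on the left in both hybridizations, TSC2 and RPTOR lie right of 0, and the SESN1 probe with the stronger signal falls on both sides of 0.

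DDIT4, the stress-induced inhibitor that acts through the TSC complex, was the member with the strongest decrease. Its normalized intensity was 75429 in the control and 28421 in cl-sh3 in hybridization 1, and 71978 and 27201 in hybridization 2. After normalization both control levels were far above both cl-sh3 levels, and each RNA had nearly the same level on both arrays. Loess evens out the dyes, so that this closeness is partly its product. Before normalization the signals were 52232 and 41213 in hybridization 1, and 74302 and 26405 in hybridization 2, control first. The log2 ratios were -1.41 and -1.40, so that DDIT4 was 2.65-fold lower in cl-sh3 by their mean, and the mean ranked 60 from the lowest among 36060 probes. The scanner software marked all 4 readings of this probe as taken from the low-gain scan and scaled up, which was so for no other member probe. In the software's own ratios, which use a different dye correction, the hybridizations lay farther apart, at -1.32 and -1.50. As in any RNA from a whole culture, fewer cells with the transcript and less transcript per cell cannot be told apart.

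DDIT4L, a paralogue that also inhibits MTOR signalling, was lower as well. Its intensity was 2418 in the control and 1039 in cl-sh3 in hybridization 1, and 2078 and 953 in hybridization 2. The control exceeded cl-sh3 with both dye orientations, a direction shared in both hybridizations by 27.3% of all 36060 probes. The log2 ratios of -1.22 and -1.12 gave a 2.25-fold decrease by their mean, with rank 138 from the lowest. The ratio of DDIT4 was below that of DDIT4L by 0.19 and 0.28 on the log2 scale, a difference similar in size to the median technical distance. That distance is taken within a probe, so that it does not measure the error between different probes.

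The sequences upstream of both genes are shown because their RNAs were the members that passed the 2-fold rule, and that of SESN2 because it was next in size. Each is the 250 bases ahead of the annotated transcript start in RefSeq (GRCh38.p14), read 5′ to 3′ on the strand of the gene. The windows searched also hold the 50 bases after the start. Capitals mark any match, on either strand, to 5 motifs: TGATGNAA (C/EBP-ATF response element), ACGTG (core of the hypoxia response element), GTAAACA (forkhead), TGANTCA (AP-1) and TGTGGT (RUNX core).
DDIT4, chr10:72273674-72273923, plus strand: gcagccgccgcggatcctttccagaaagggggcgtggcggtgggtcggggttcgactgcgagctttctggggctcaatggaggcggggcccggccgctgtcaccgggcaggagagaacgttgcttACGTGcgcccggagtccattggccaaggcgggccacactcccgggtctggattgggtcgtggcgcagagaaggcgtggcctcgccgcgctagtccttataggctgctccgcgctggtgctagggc
DDIT4L, chr4:100190469-100190718, minus strand: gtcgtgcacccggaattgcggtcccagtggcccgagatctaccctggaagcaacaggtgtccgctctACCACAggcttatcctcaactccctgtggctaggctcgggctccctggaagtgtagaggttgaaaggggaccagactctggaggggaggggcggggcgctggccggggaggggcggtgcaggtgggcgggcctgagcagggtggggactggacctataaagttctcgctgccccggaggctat
SESN2, chr1:28259268-28259517, plus strand: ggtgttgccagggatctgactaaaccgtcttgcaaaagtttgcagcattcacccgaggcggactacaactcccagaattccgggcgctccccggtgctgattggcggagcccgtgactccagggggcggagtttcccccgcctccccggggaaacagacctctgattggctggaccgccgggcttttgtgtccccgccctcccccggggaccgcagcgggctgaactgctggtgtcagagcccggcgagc
In DDIT4 the capitals are the hypoxia core ACGTG, which starts at position -125 relative to the transcript start. In DDIT4L they are ACCACA, the RUNX core on the opposite strand, at position -183. SESN2 held none of the 5 motifs in its window. The hypoxia core occurs in 21.4% of the 35116 promoter windows in the table and the RUNX core in 13.1%, so that both matches are common. A match does not show that a factor binds, and the absence of these letters from a window says nothing of the factor.

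Among the sestrins, SESN2 was lower in cl-sh3 in both hybridizations without reaching 2-fold in either. SESN2 binds leucine and is induced by metabolic and endoplasmic reticulum stress. Its intensity was 1427 in the control against 1096 in cl-sh3 in hybridization 1, and 1324 against 793 in hybridization 2. The control readings were the higher ones on both arrays, and the larger gap was seen when the control carried Cy5. The log2 ratios of -0.38 and -0.74 averaged -0.56, a 1.47-fold decrease with rank 1667 from the lowest. The software's ratios were closer together, at -0.59 and -0.62. The mean exceeded the distance between hybridizations, which was itself larger than the median distance of all probes.

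SESN1, a p53 target that restrains MTOR under genotoxic stress, had 2 probes that behaved differently. The brighter probe read 525 in the control and 385 in cl-sh3 in hybridization 1, and 437 and 501 in hybridization 2. The Cy3-labelled RNA was therefore the higher one on each array, whichever clone it came from, and no direction could be given. The log2 ratios of -0.45 and 0.20 lay 0.65 apart, a distance exceeded by 4.4% of all probes. The dimmer SESN1 probe read 275 and 240 in hybridization 1, and 258 and 224 in hybridization 2, control first. Its log2 ratio was -0.20 in both, a small decrease that repeated with either dye.

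SESN3, the sestrin known as a target of the FOXO factors, was close to equal in both RNAs. Its intensity was 271 in the control and 264 in cl-sh3 in hybridization 1, and 248 and 209 in hybridization 2. The log2 ratios of -0.04 and -0.25 differed by more than their mean of -0.14. SESN2 was thus 0.34 and 0.49 below SESN3 on the log2 scale, whereas its ratio minus that of the brighter SESN1 probe was 0.07 in hybridization 1 and -0.94 in hybridization 2.

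The TSC genes, which encode partners in the same GTPase-activating complex, had unequal ratios. TSC1, the stabilizing partner, read 2596 in the control and 2557 in cl-sh3 in hybridization 1, and 2358 and 2222 in hybridization 2. Its readings were nearly equal on both arrays, with log2 ratios of -0.02 and -0.09, and the software's ratios of -0.21 and 0.18 had opposite signs. TSC2, the catalytic partner, read 918 and 1148 in hybridization 1, and 673 and 889 in hybridization 2, control first. Here cl-sh3 was the higher one with either dye. The log2 ratios of 0.32 and 0.40 gave a mean 1.29-fold increase, with rank 2545 from the highest. The ratio of TSC1 was below that of TSC2 by 0.34 and 0.49 on the log2 scale.

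The first of the TSC2 promoter windows was the only one of the 12 windows of the members with more than 1 motif match. A stretch of 40 bases around it is printed, from the same RefSeq source, with the C/EBP-ATF element in capitals.
TSC2, chr16:2047859-2047898, plus strand: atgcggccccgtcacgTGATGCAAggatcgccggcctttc
This element starts at position -110 and is found in 3.62% of all windows. It overlaps the hypoxia core on both strands, which starts at -113 on the gene's strand and at -114 on the other. Apart from these and the matches in DDIT4 and DDIT4L, no motif was found in the windows of the 9 members with an entry. The forkhead motif, held by 3.42% of all windows, and the AP-1 motif, held by 7.71%, were found in none of the 12.

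Of the MTOR complex itself, the scaffold RPTOR was higher in cl-sh3, while MTOR and DEPTOR were nearly level. RPTOR, which brings substrates to the kinase, read 3195 in the control and 4152 in cl-sh3 in hybridization 1, and 2539 and 3295 in hybridization 2. Both arrays placed cl-sh3 above the control, with a log2 ratio of 0.38 in each. This was a 1.30-fold increase that ranked 2378 from the highest among all probes. MTOR read 1609 and 1527, then 1129 and 1064, control first. Its log2 ratios of -0.08 and -0.09 repeated closely but were small, and the software's ratios of -0.07 and 0.04 had opposite signs. DEPTOR, a partner that inhibits the kinase, read 921 and 880, then 936 and 864, again with the control slightly higher. Its log2 ratios were -0.07 and -0.12. The ratio of RPTOR exceeded that of MTOR by 0.45 and 0.46, and that of DEPTOR by 0.44 and 0.49.

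**Figure D2:**
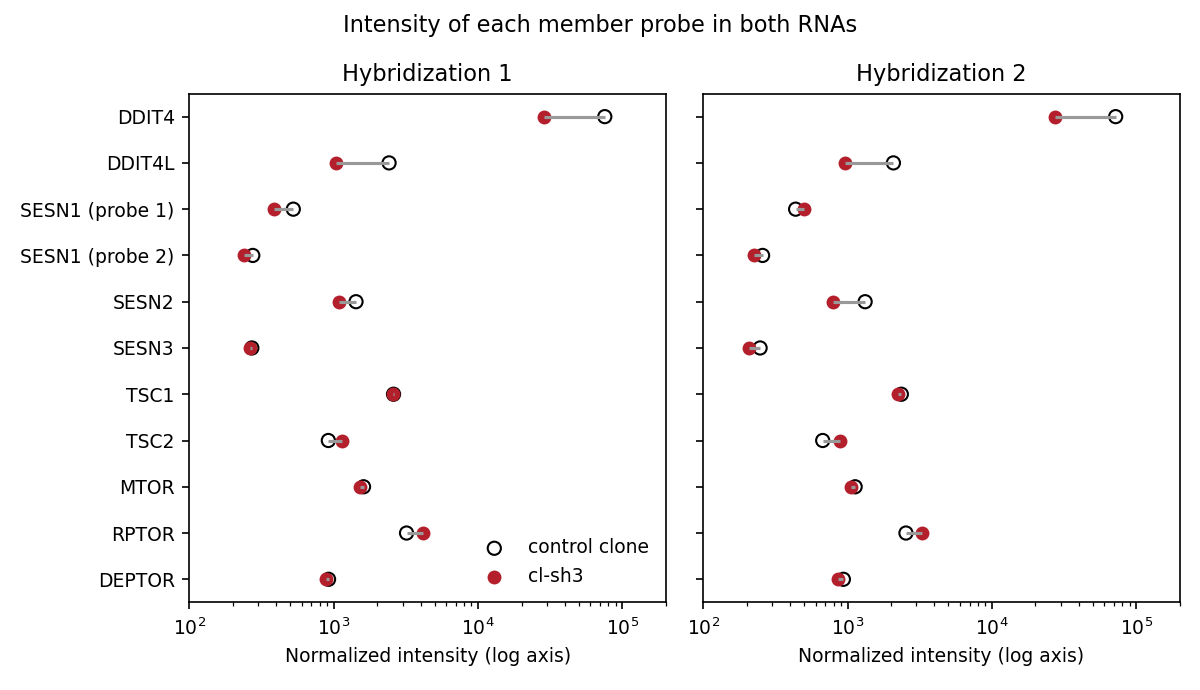
Normalized intensity (log axis) of each member probe in the control clone (open circles) and in cl-sh3 (filled circles), with 1 panel for each hybridization. The gap is widest for DDIT4, from 75429 to 28421 in hybridization 1, and cl-sh3 lies right of the control for TSC2 and RPTOR in both panels; intensities of different probes are not comparable as amounts of RNA.

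The members also differed in how well the hybridizations repeated. The median distance between the 2 ratios was 0.06 over the 11 member probes, against 0.22 over all probes. The brighter SESN1 probe had the largest distance among the members, followed by SESN2 and SESN3, whereas the dimmer SESN1 probe was among the closest. In the software's ratios, 8 of 11 member probes had the same sign in both hybridizations, against 10 with the normalization used here. The probes that changed sign there were the brighter SESN1 probe, TSC1 and MTOR.

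**Figure D3:**
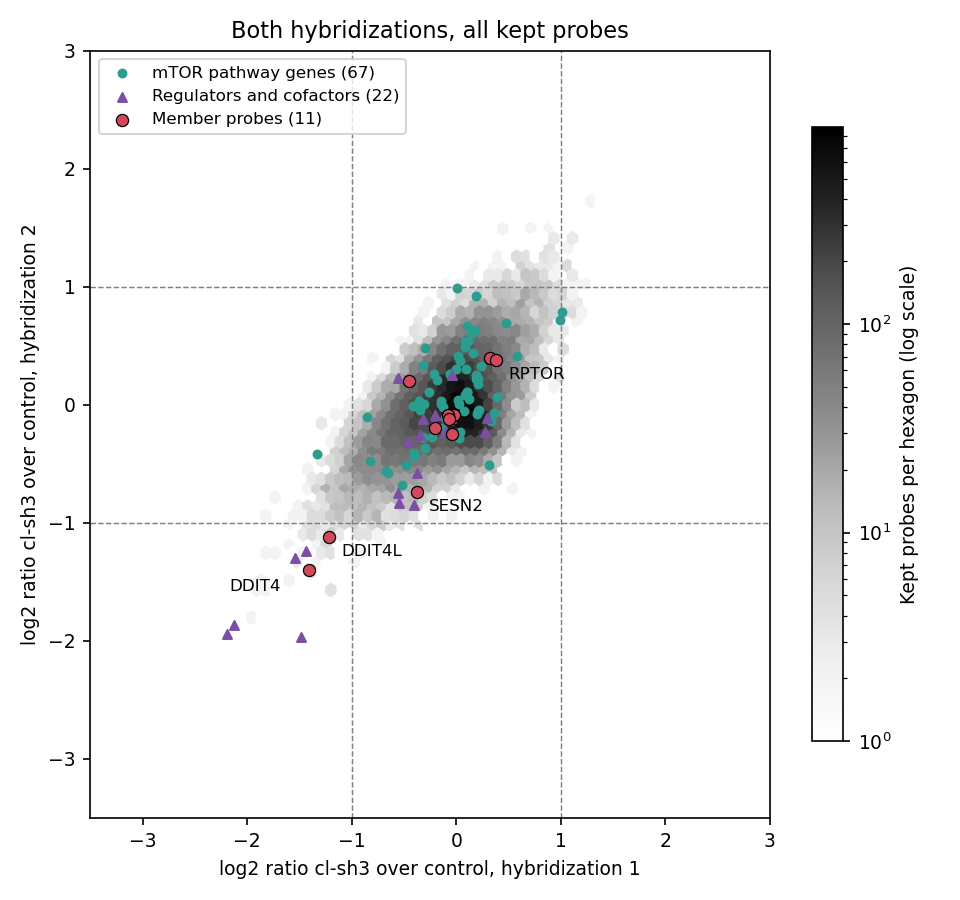
Log2 ratio of cl-sh3 over control in hybridization 1 (horizontal axis) and hybridization 2 (vertical axis) for all 36060 probes (grey hexagons, shaded by count on a log scale), with member probes (red), pathway genes (green) and regulators (purple triangles). Dashed lines mark 2-fold; DDIT4 and DDIT4L lie in the lower left corner beyond both lines with 5 regulators, and no pathway gene does.

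The genes whose pair of ratios lay nearest to that of DDIT4 were ATF1, DHRS2, SLC9A9, SMIM3 and HNRNPCL1. Their distance from DDIT4 in the plane of both log2 ratios was 0.058 to 0.126, over 2 hybridizations of 1 pair of RNAs. ATF1, a CREB family transcription factor, had ratios of -1.35 and -1.43. DHRS2, a short-chain dehydrogenase, had -1.36 and -1.46, and SLC9A9, an endosomal sodium-proton exchanger, had -1.38 and -1.31. SMIM3 had -1.49 and -1.34. HNRNPCL1, with -1.32 and -1.31, belongs to a family of near-identical copies, so that its probe may read several of them.

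The wider pathway was described with 74 genes, of which 68 had a probe and 67 passed the filter on background. With the brightest probe for each gene, 0 of 67 showed a decrease of 2-fold or more in each hybridization and 0 showed such an increase, against 0.514% and 0.136% of the 16153 genes measured. In sign alone, 18 were lower in both, 28 were higher in both and 21 changed sign. The shares over all genes were 28.4% lower and 30.9% higher. The median log2 ratio was 0.08 over the pathway and 0.01 over all genes, and the means ranged from -0.87 to 0.90.

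By branch, the partners of MTOR in its complexes were the group with the highest median, 0.24 over 8 genes, of which 5 were higher in both hybridizations and 0 lower. PRR5, a subunit of the second MTOR complex, had log2 ratios of 0.99 and 0.72 with its brightest probe but 0.08 and 0.07 with another. Among the 3 genes of the TSC and RHEB group, RHEB, the GTPase that activates the kinase, was lower at -0.67 and -0.56, and the group's median was -0.10. The RAG and GATOR genes, which relay amino acid supply at the lysosome, had 6 of 23 lower, 9 higher and a median of 0.09. LAMTOR5, a part of the lysosomal anchor of the RAG GTPases, was the highest of them at 0.48 and 0.69.

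The AMPK and LKB1 genes, which sense energy, had 4 of 8 lower in both hybridizations, 2 higher and a median of -0.14. CAB39, a scaffold that activates LKB1, had the lowest mean of the pathway, with ratios of -1.33 and -0.42 that were 2-fold apart in hybridization 1 alone. In the PI3K and AKT input, 3 of 12 genes were lower, 6 were higher and the median was 0.05. AKT2, a kinase that relays insulin signals and inactivates the TSC complex, had the highest mean, with ratios of 1.01 and 0.79, and its other probes gave 0.84 and 1.05, and 0.37 and 0.36. None of the 3 AKT2 probes reached 2-fold in both hybridizations. The outputs, such as the S6 kinases and the 4E-BP translation inhibitors, had 4 of 13 lower, 5 higher and a median of 0.03. ULK1, the autophagy kinase that MTOR holds back, was lower at -0.83 and -0.48, and its other probe gave -0.14 and -0.11.

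Of 22 factors known to drive DDIT4 or the sestrins or to bind or degrade the DDIT4 protein, 5 showed a decrease of 2-fold or more in each hybridization and 0 showed such an increase, against 0.514% and 0.136% of all genes measured. With the mean of all kept probes of a gene the count of decreases was 3, as ATF4 and CEBPB no longer met the rule. In sign alone, 18 were lower in both, 0 were higher in both and 4 changed sign, against 28.4% lower and 30.9% higher over all genes. Their median log2 ratio was -0.26, against 0.01 over all genes. These factors were listed with earlier results of the same arrays known, so that their count is not independent evidence of a direction.

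The stress-response factors were the group with the lowest median, -1.38, and all 6 were lower in both hybridizations. DDIT3, the transcription factor CHOP of endoplasmic reticulum stress, had log2 ratios of -2.19 and -1.94. ATF4, the central factor of the integrated stress response and a known activator of DDIT4 and SESN2, had -1.54 and -1.30, with a second probe at -0.93 and -0.62 that missed 2-fold. NUPR1, a small stress-induced chromatin protein, had -1.49 and -1.97. CEBPB, a C/EBP family factor, had -1.44 and -1.24 with its brightest probe, whereas its other probe gave -0.05 and -0.07. The remaining members of this group did not reach 2-fold.

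TXNIP, a protein that binds DDIT4, was 4.0-fold lower in cl-sh3 by its mean, with log2 ratios of -2.13 and -1.87. In contrast, the other cofactors, which belong to the ubiquitin ligase that degrades DDIT4, did not reach 2-fold, and DDB1 changed sign at 0.27 and -0.23. The p53 family, which activates DDIT4 and SESN1 after DNA damage, had a median of -0.11 over 3 genes. The hypoxia factors had a median of -0.48 and the forkhead factors, known to activate SESN3, a median of -0.08. The highest means among the 22 were those of FOXO3, with ratios of -0.04 and 0.25, and of TP73, with 0.29 and -0.11, both of which changed sign. Another probe of TP73 gave 0.15 and 0.49, and another of FOXO3 had a mean of -0.01.

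**Figure D4:**
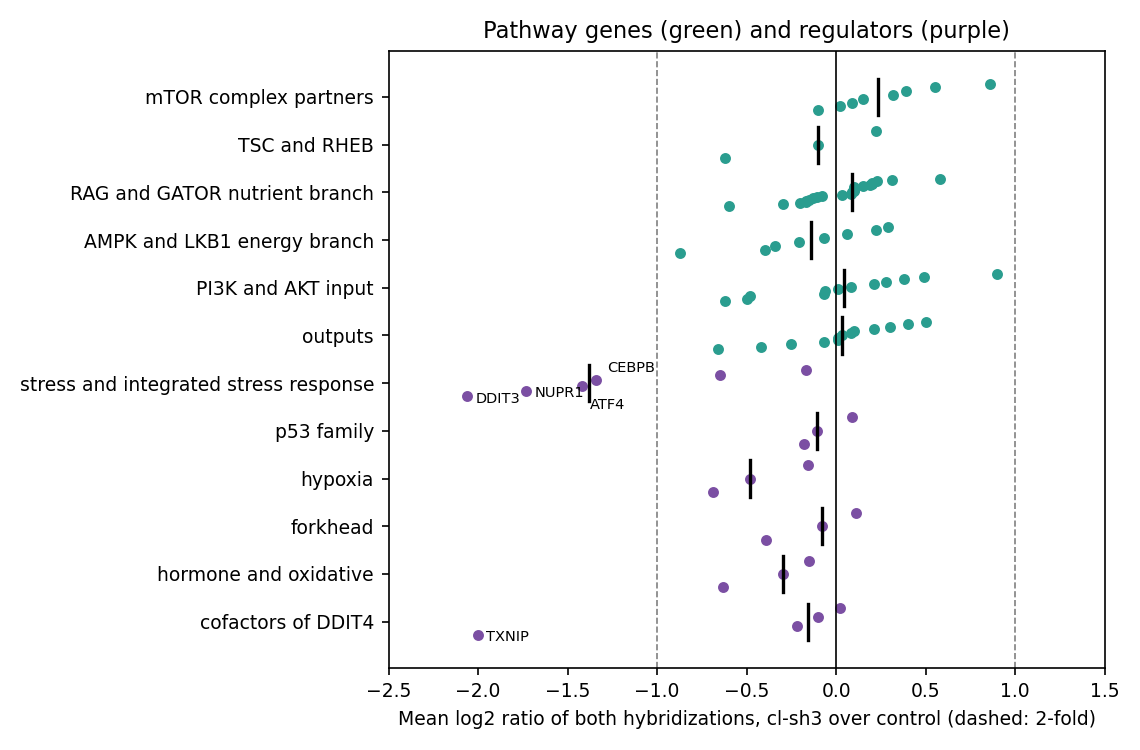
Mean log2 ratio of both hybridizations (horizontal axis) for each gene's brightest probe, with 1 row for each group of pathway genes (green) or regulators (purple); black bars are group medians and dashed lines mark 2-fold. No pathway gene lies beyond a 2-fold line, whereas DDIT3, TXNIP, NUPR1, ATF4 and CEBPB lie left of -1.

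The 2-fold decrease of DDIT4 and DDIT4L and the absence of any 2-fold increase among the members held in each way of processing that was tried. Several of those ways could not have altered these decreases, such as either hybridization alone or a change of the detection filter. The log2 ratio of DDIT4 ranged from -1.41 to -1.24, that of DDIT4L from -1.24 to -1.11, that of SESN2 from -0.74 to -0.38, that of TSC2 from 0.32 to 0.42 and that of RPTOR from 0.37 to 0.42. The dimmer SESN1 probe moved from -0.43 to -0.15, always below 0.

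**Figure D5:**
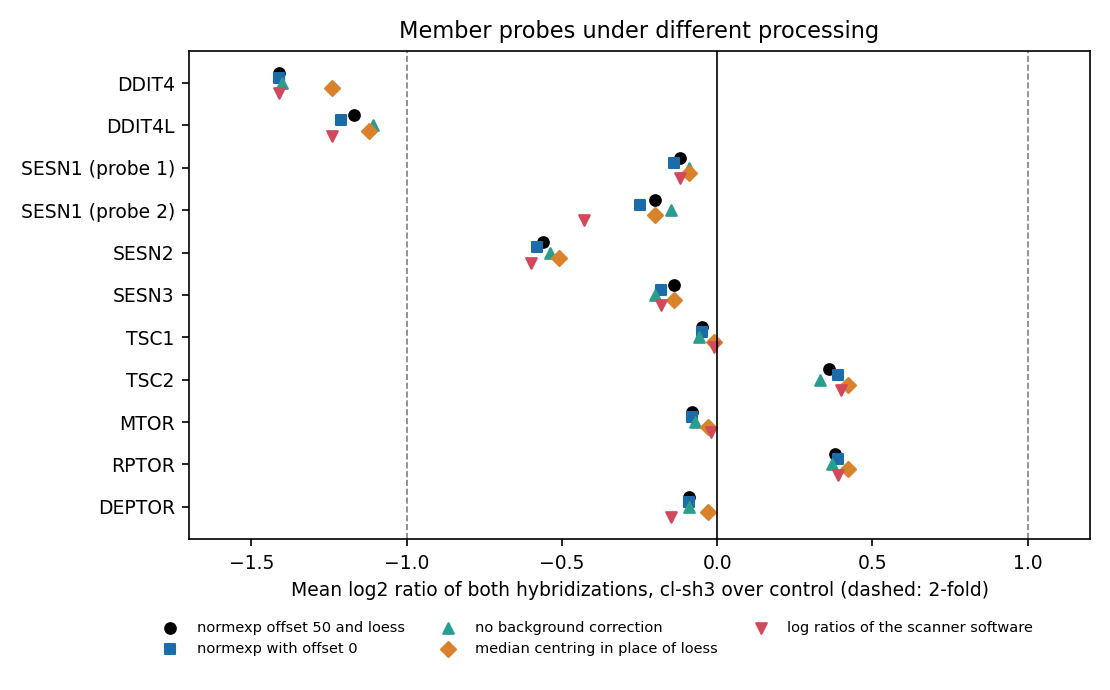
Mean log2 ratio of both hybridizations (horizontal axis) for each member probe (rows) under 5 ways of processing the intensities, with dashed lines at 2-fold. All 5 values lie left of -1 for DDIT4 and DDIT4L and right of 0 for TSC2 and RPTOR, and the widest spread is that of the dimmer SESN1 probe.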

How the data were processed

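Labelled cRNA of cl-sh3, in which RUNX2 was knocked down, and of the control clone was hybridized to 2-colour Agilent whole human genome arrays. The authors deposited median pixel intensity and local background of every spot, quality flags, and the scanner software's log10 ratio after its own corrections. They also deposited a table of log10 ratios, which equalled the software's to within 0.00245 and 0.005. Feature Extraction is version 10.5.1.1 per the file headers and 8.5.1.1 in the submitters' processing notes. Gene symbols came from RefSeq accessions (GRCh38.p14 table), which named 18023 of 19228. The authors' supplementary annotation paired a further RUNX2 accession with its gene.

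Intensities were background-corrected by normexp (offset 50) and normalized by loess in limma 3.58.1 (R 4.3.3). Spots with outlier flags, 153 and 144, were left out, and each ratio was expressed as log2 of cl-sh3 over control. A normalized level is the intensity of 1 RNA after loess. A probe was kept when the software's background flag marked at least 50% of its spots for 1 RNA or more in both hybridizations, and 36060 of these probes had both ratios. A probe was called when it differed at least 2-fold in both hybridizations, which is the study's rule. With 1 pair of clones no test was made, and the number of arrays limits the precision. The script was tested on a simulated dye swap with changes larger than those of any member, and none in dim probes. It was thus not tested for small changes or dim probes.

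Every member probe is reported. Other genes are represented by their brightest kept probe, and those named are the ones at least 2-fold changed, the 3 largest mean changes in each direction per list, the 5 genes nearest to DDIT4, and RUNX2. Other kept probes of the named pathway and regulator genes are given where they differ. The members and gene lists were chosen with earlier results of these data known. No probe of LAMTOR4, CASTOR1, CASTOR2, BMT2, PRKAG1 or EIF4EBP3, or of the fibroblast marker COL1A1, was matched by accession, and FNIP1 did not pass the filter. DEPTOR had no promoter window. Protein sequences were not used here. The 13 alternatives were the software's ratios, the deposited ratios, either hybridization by itself, an offset of 0, uncorrected background, median centring, Aquantile scaling, retention of flagged spots, omission of the detection filter, detection in both RNAs, 2-fold by the mean ratio, and averaging the kept probes of a gene. Other computations used Python 3.11.15, numpy 2.4.6, pandas 2.3.3 and matplotlib 3.10.9.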

Additional observations from a re-analysis of the deposited data

How the results depend on the processing

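The hybridizations are a technical repeat of 1 pair of RNAs, so clones and biological spread could not be examined. No paired analysis was possible because only 1 pair of clones was hybridized and no result came from a test. In the 12 settings that bear on them, 2 member probes were at least 2-fold lower and 0 higher each time, and no called value changed sign. Several of these settings could not alter the 2 decreases. A decrease in both hybridizations implies it in each alone and in their mean. Aquantile scaling leaves the ratios as they are, and the detection filters and outlier flags removed no member probe. The deposited ratios repeat those of the software. The brighter SESN1 probe had no direction: it was 0.20 in hybridization 2 alone and below 0 otherwise. DDIT4 moved to -1.24 with median centring.

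The median of the member probes was -0.09 without background correction or with median centring and -0.08 in hybridization 1 alone. That of the pathway genes was 0.06 without background correction, 0.12 with median centring, 0.10 in the software's and in the deposited ratios, 0.03 and 0.05 in hybridizations 1 and 2 alone, and 0.01 with the mean of a gene's probes. That of the regulators was -0.36 in hybridization 1 alone.

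Over all probes, 142 were at least 2-fold lower and 44 higher. The counts were 124 and 77 with median centring, 253 and 103 in the software's ratios, 251 and 103 in the deposited ratios, and 250 and 93 by the mean of both hybridizations. Hybridization 1 alone gave 506 and 88, and hybridization 2 alone gave 196 and 219, so that there the higher probes outnumbered the lower ones. In hybridization 1 alone, 1 pathway gene was at least 2-fold lower (CAB39) and 1 higher (AKT2). With the mean of a gene's probes, 3 of the 5 regulators were at least 2-fold lower. The cause of these changes was not tested.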

Other observations

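Several pathway genes had more than 1 probe, and the genes named here were picked after their values were seen. PRKAB1 and PRKAB2, the regulatory beta subunits of AMPK, were lower in cl-sh3 with every kept probe. The only probe of PRKAB1 gave log2 ratios of -0.40 and -0.41, and the 3 probes of PRKAB2 gave -0.30 and -0.37, -0.80 and -0.61, and -0.80 and -0.38. Of the 8 AMPK and LKB1 genes, 4 were lower and 2 higher in both hybridizations by their brightest probe. STK11, the gene of LKB1, was higher with both probes, at 0.24 and 0.33 and at 0.25 and 0.47. LAMTOR3, a part of the lysosomal anchor of the RAG GTPases, was lower with both of its probes, at -0.52 and -0.68 and at -0.89 and -0.57, while LAMTOR5 of the same complex was higher. GRB10, an adaptor that dampens insulin signalling, was lower with both probes, at -0.48 and -0.51 and at -0.93 and -0.20.

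The 4E-BP translation inhibitors had opposite signs. EIF4EBP1, a known target of ATF4, had ratios of -0.40 and -0.44. All 4 probes of EIF4EBP2 had positive ratios in both hybridizations, with means of 0.27 to 0.80, although the brightest gave 0.01 and 0.99.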
